A study of Mus musculus with 12 samples.

Results

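In mouse small-intestinal organoids labelled Eif4g2-/-, 38 merged transcript rows were higher than in wild type both in RNA-seq and in ribosome profiling, out of 3762 of sufficient depth and 45864 with a count in all. They form 21 clusters of neighbouring rows, so they describe about that many transcribed regions and not 38 separate genes. The members were chosen by measured values: a log2 ratio of homozygous to wild-type libraries of at least 1 in RNA-seq (2-fold) and at least 0.7 in ribosome profiling (1.62-fold). Pooled counts of the homozygous libraries had to reach 60 (RNA-seq) and 200 (ribosome profiling), and the second column of the tables, read here as codons of the counted coding region, had to lie above 90 and below 1000. Rows with equal counts in all 12 libraries were merged first, which turned 45 rows into the 38 members. The direction and size of the difference between the homozygous and the wild-type libraries are therefore given as a description and were not tested.

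The study measured RNA and ribosome footprints in organoids of 3 genotypes, labelled Eif4g2+/+ (WT), Eif4g2+/- (Het) and Eif4g2-/- (KO). Each genotype had 2 libraries per assay, called here by their label numbers WT_6026 and WT_6028, Het_6136 and Het_6139, and KO_6070 and KO_6072, which are the same in both assays, and values are listed in that order. All groups, WT included, grew for 3 days in basal medium with added growth factors and received 0.5 µM 4-OHT, the active form of tamoxifen that is used to switch on inducible recombinases, for 24 hours. The labels name neither a recombinase nor its promoter, and do not say whether a number stands for an animal, a litter or a culture, so the p-values below measure the spread between these libraries, which may be technical. The tables give Ensembl transcript IDs, which are not paired with gene symbols in the sources used here. Genes are therefore not named, and the level of Eif4g2 and the markers of intestinal cell types were not analysed here. Members are identified by cluster number, 2 of them also by transcript ID.

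Eif4g2 encodes a scaffold protein of translation initiation that resembles the C-terminal part of eIF4G and lacks the site that binds the cap-binding protein. It is known for supporting initiation on a subset of mRNAs. Intestinal organoids grow from crypt stem cells and contain dividing progenitors as well as absorptive and secretory cells. Footprints are the mRNA fragments that ribosomes shield from RNase, so a footprint count reflects both how much mRNA there is and how many ribosomes it carries. Where RNA and footprints differ by the same factor, the ratio of footprints to RNA, the ribosome density, is the same. In such bulk libraries, more cells of a type and more RNA per cell cannot be told apart.

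The libraries differed much in depth. Totals over all rows ran from 387649 to 1077663 counts in RNA-seq and from 5551591 to 25899680 in ribosome profiling, and the KO libraries were the deepest of each assay. Levels are given as counts per 1000000 counts of the library (CPM). RNA-seq limited the precision: the members rested on 1 to 68 pooled WT counts (median 15.5), and 22 of 38 had fewer than 20, against 10.5% of the 3762 eligible units. Footprints on the members were far deeper, with 80 to 8863 pooled WT counts. With the counting error of pooled RNA counts alone, the exact 95% interval of the KO to WT ratio lay wholly above 2-fold in 14 members and in 8 of the 21 leads, the members taken to stand for each cluster. These are the counts that chose the members, and the intervals, also those given below for single clusters, do not allow for that choice. They describe the counting error and are no test of the difference.

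Of the eligible units, 350 (9.3%) reached the RNA threshold and 88 (2.34%) the footprint threshold, and the 38 members are those that reached both. Their log2 KO to WT change ran from 1.05 to 4.33 in RNA-seq (median 1.47) and from 0.70 to 1.51 in ribosome profiling (median 0.99). The medians over all eligible units were 0.21 and 0.03. All 38 had both KO libraries above both WT libraries in each assay, as did 44.2% (RNA-seq) and 38.4% (ribosome profiling) of eligible units. Nothing is read from that count, since this contrast chose the members. Just inside the RNA threshold lay cluster 6, with changes of 1.05 and 1.51 for its second member, and cluster 19, with 1.08 and 0.79. Just inside the footprint threshold lay cluster 21, with 0.70 for its second member, and a member of cluster 16 with 0.73. The nearest unit outside had 0.93 in RNA-seq beside 0.75 in ribosome profiling, and the nearest on the other side 1.02 beside 0.66, from 136 and 24963 KO counts.

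**Figure D1:**
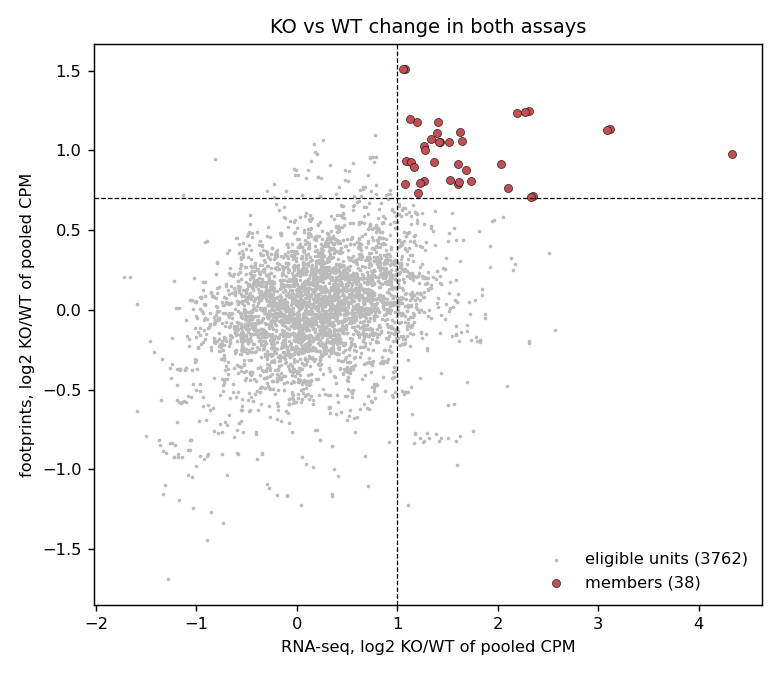
Log2 change from WT to KO in RNA-seq (x axis) and in ribosome profiling (y axis), from pooled CPM with 0.5 added to the counts, for the 3762 eligible units (grey) and the 38 members (red). Dashed lines mark the thresholds of 1 and 0.7; the members fill the upper right corner by construction, and 1 of them stands apart at an RNA change of 4.33.

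The lead of each cluster is the member with the largest value of the smaller of its 2 changes, and the values of the leads were summed in each library. Abundant leads weigh most in such a sum, and differences between libraries of a genotype can cancel in it. In KO_6070 and KO_6072, for example, RNA was 22.3 and 47.3 CPM in the lead of cluster 9 but 68.1 and 40.8 in that of cluster 16. In RNA-seq the 21 leads together took 467 and 524 CPM in the WT libraries, 979 and 943 in those of Het and 1442 and 1441 in KO. Their footprints summed to 2584 and 2386 CPM in the WT libraries, 3097 and 3123 in those of Het and 4993 and 4966 in KO. Both sums were ordered WT, Het, KO with no overlap, and the Het sum was nearer to KO in RNA-seq than in ribosome profiling. The Het libraries took no part in the choice of members. A comparison of Het with WT or with KO nevertheless shares the WT or the KO libraries with that choice.

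Clusters are numbered from 1 by the smaller of the 2 changes of their lead. Cluster 1 holds 3 members of 692 to 705 codons, and its lead, ENSMUST00000103142.12, has 705 codons. Its RNA-seq values were 6.71 and 25.8 CPM in the WT libraries, 23.2 and 41.5 in those of Het and 65.9 and 91.9 in KO. The WT libraries differed widely here and the higher one lay above the lower Het library, whereas both KO libraries stood clear. Footprints were 120.3 and 116 CPM in the WT libraries, 139.8 and 158 in those of Het and 287 and 276 in KO, 3 levels without overlap. The log2 changes from WT to KO were 2.31 in RNA and 1.25 in footprints, and the RNA ratio was 5.14 (exact 95% interval 2.92 to 9.87). Footprints rose from WT to Het by 0.34 (SE 0.07, edgeR adjusted p 0.0298), while the RNA difference of 0.88 (SE 0.47, edgeR adjusted p 0.359) did not pass. From Het to KO, RNA rose by 1.39 (SE 0.27, edgeR adjusted p 0.000296) and footprints by 0.91 (SE 0.07, edgeR adjusted p 3.61e-08). The call on footprints from WT to Het was lost without library WT_6028 (log2 change 0.32) and without library Het_6139 (0.26), and the RNA call from Het to KO without library Het_6136 (0.96).

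Cluster 2, also of 3 members (340 to 388 codons), differed from it in Het. Its lead ENSMUST00000007005.14 had RNA-seq values of 22.4 and 15.5 CPM in the WT libraries, 10.3 and 7.21 in those of Het and 45.8 and 44.5 in KO. Both Het libraries lay below both WT libraries, although they rest on only 12 pooled counts, and both KO libraries lay above. Footprints were 136 and 139 CPM in the WT libraries, 157 and 159 in those of Het and 318 and 298 in KO, so that Het was slightly above WT where its RNA was below. The RNA difference between Het and WT, -1.18 (SE 0.53, edgeR adjusted p 0.261), did not pass, and neither did that in footprints, 0.20 (SE 0.07, edgeR adjusted p 0.192). KO exceeded Het by 2.34 (SE 0.37, edgeR adjusted p 6.5e-06) in RNA and 0.96 (SE 0.06, edgeR adjusted p 1.05e-08) in footprints, both called. Density in Het was the highest of the 3 genotypes, with a log2 footprint to RNA ratio of 2.79 in WT, 4.07 in Het and 2.77 in KO. The density difference between Het and WT, 1.32 (SE 0.53, edgeR adjusted p 0.475), did not pass.

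Clusters 3 and 4 had large footprint differences with visible spread between libraries. The lead of cluster 3 (549 codons) gave 11.2 and 5.16 CPM in the WT libraries, 20.6 and 30.6 in those of Het and 61.4 and 91.9 in KO in RNA-seq. These WT values come from 7 pooled counts, and the KO to WT ratio was 9.31 (exact 95% interval 4.41 to 23.5). Its footprints were 388 and 275 CPM in the WT libraries, 414 and 563 in those of Het and 733 and 859 in KO, among the highest of all members. From Het to KO both RNA, 1.67 (SE 0.28, edgeR adjusted p 2.15e-05), and footprints, 0.70 (SE 0.13, edgeR adjusted p 0.000867), rose; DESeq2 did not call the footprints (0.70). The Het to WT difference in footprints of 0.55 (SE 0.13, edgeR adjusted p 0.0595) did not pass, but was called without library WT_6026 (0.82) or Het_6136 (0.75), without a filter on low counts (0.56) and with transcripts grouped (0.55). The single member of cluster 4 (324 codons) gave 20.1 and 12.9 CPM in the WT libraries, 50.2 and 37.8 in those of Het and 53.6 and 52.9 in KO in RNA-seq. Its footprints were 96.6 and 59.4 CPM in the WT libraries, 82.3 and 106 in those of Het and 175 and 208 in KO. In both clusters the footprint value was lower in library WT_6028 than in WT_6026, in Het_6136 than in Het_6139 and in KO_6070 than in KO_6072. RNA of cluster 4 was nearly as high in Het as in KO, with a difference of 0.28 (SE 0.25, edgeR adjusted p 0.57), but its footprints in Het overlapped WT and rose from Het to KO by 1.01 (SE 0.14, edgeR adjusted p 4.21e-05). Its footprint difference between Het and WT depended on library WT_6026, without which it was called (0.67), and was -0.01 without library WT_6028.

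**Figure D2:**
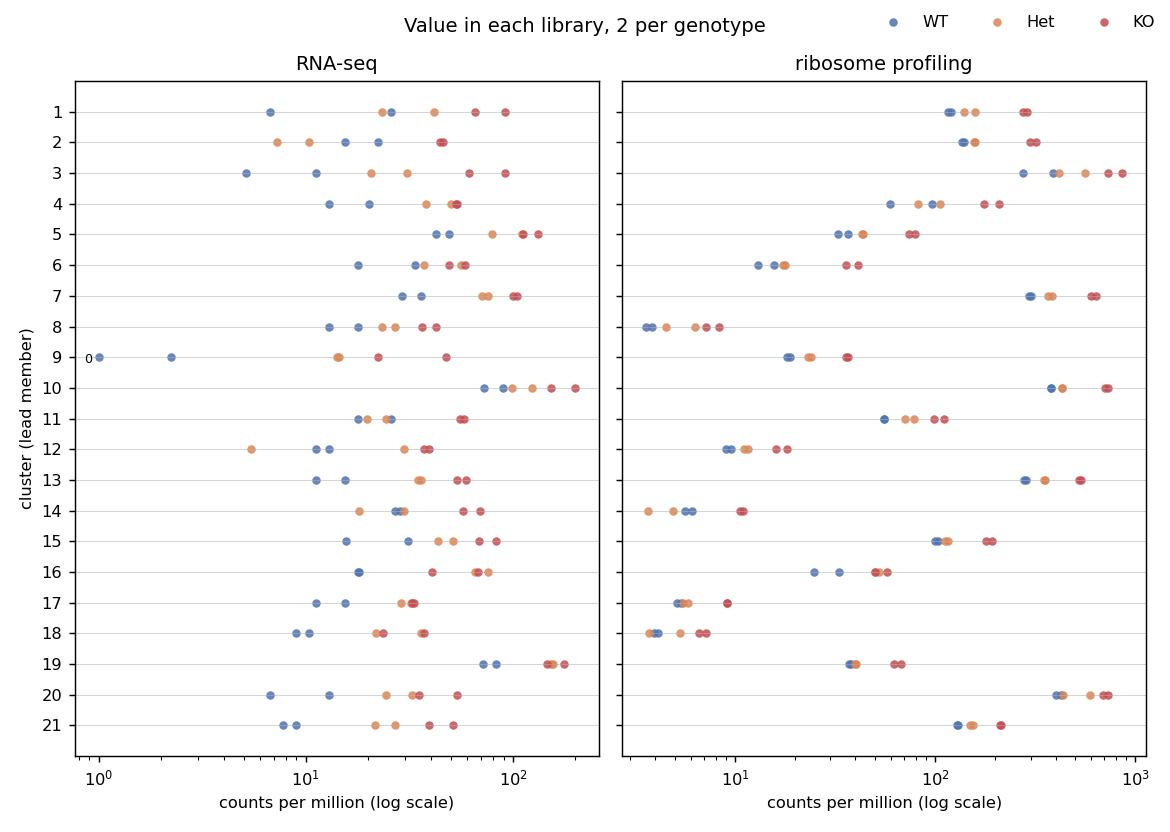
CPM of the lead member of each cluster (rows 1 to 21) in every library, on log axes, for RNA-seq (left) and ribosome profiling (right); each point is 1 library, coloured by genotype, and a value of 0 in 1 WT library of cluster 9 is drawn at 1 and marked. KO points lie to the right of WT points in every row, and Het points of cluster 16 lie close to those of KO.

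Clusters 7, 10, 13, 20 and 21 were the other regions with abundant footprints and with RNA and footprints ordered WT, Het, KO. Cluster 7 (878 codons, the longest member) gave 29.1 and 36.1 CPM in the WT libraries, 70.9 and 75.7 in those of Het and 101 and 105 in KO in RNA-seq. Its footprints were 302 and 294 CPM in the WT libraries, 385 and 367 in those of Het and 639 and 602 in KO. Neither assay showed overlap between genotypes, and cluster 7 was 1 of 2 clusters in which Het was called above WT in both assays, by 1.07 (SE 0.31, edgeR adjusted p 0.0421) in RNA and 0.34 (SE 0.07, edgeR adjusted p 0.0189) in footprints. The RNA call was lost without any 1 of the 4 WT and Het libraries (0.92 to 1.22), without a filter on low counts (1.16) and with DESeq2, and the footprint call without either Het library (0.29 and 0.38). From Het to KO, its RNA difference of 0.53 (SE 0.20, edgeR adjusted p 0.0998) did not pass. Cluster 10 (853 codons) had the highest WT RNA level of the leads, 89.5 and 72.2 CPM in the WT libraries, 124 and 99.1 in those of Het and 199 and 153 in KO. Its footprints were 378 and 377 CPM in the WT libraries, 428 and 431 in those of Het and 730.2 and 705 in KO, with WT libraries almost equal. KO exceeded Het by 0.67 (SE 0.18, edgeR adjusted p 0.00977) in RNA and by 0.73 (SE 0.06, edgeR adjusted p 1.87e-07) in footprints. That RNA call was lost without library KO_6070 (0.48), without library Het_6139 (0.54) and with DESeq2 (0.71).

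In cluster 13 (494 codons) RNA was 11.2 and 15.5 CPM in the WT libraries, 34.8 and 36.0 in those of Het and 59.2 and 53.8 in KO. Its footprints were 285 and 277 CPM in the WT libraries, 351 and 353 in those of Het and 538 and 524 in KO. The libraries of the 3 genotypes did not overlap in either assay, and libraries of a genotype differed little in footprints. The RNA differences of 1.31 (SE 0.44, edgeR adjusted p 0.1) from WT to Het and 0.71 (SE 0.26, edgeR adjusted p 0.0799) from Het to KO did not pass. Its footprints rose from WT to Het by 0.33 (SE 0.06, edgeR adjusted p 0.0187), a call lost without either Het library (0.32 and 0.34). Cluster 20 (413 codons) carried the most footprints per codon of all members, 102 CPM per 100 codons in WT and 172 in KO. Its footprints were 426 and 403 CPM in the WT libraries, 595 and 437 in those of Het and 729.7 and 687 in KO, and the Het libraries disagreed: Het_6139 was near WT and Het_6136 nearer to KO. Footprints rose from Het to KO by 0.45 (SE 0.10, edgeR adjusted p 0.00367), a call lost without library Het_6139 (0.23) and with DESeq2 (0.45), whereas the Het to WT difference of 0.32 (SE 0.10, edgeR adjusted p 0.189) was called only without library Het_6139 (0.54) or without a filter on low counts (0.33). RNA of cluster 20 was scarce beside this, 6.71 and 12.9 CPM in the WT libraries, 24.5 and 32.4 in those of Het and 53.6 and 35.3 in KO from 8 pooled WT counts. Cluster 21 (274 codons) gave 8.95 and 7.74 CPM in the WT libraries, 27.1 and 21.6 in those of Het and 39.1 and 51.0 in KO in RNA-seq. Footprints of cluster 21 were 128 and 130.4 CPM in the WT libraries, 155 and 149.5 in those of Het and 210.1 and 214 in KO. Its RNA change of 2.35 from WT to KO was the third largest among the leads, and its footprint change of 0.72 the smallest. From Het to KO it was called in both assays, by 0.91 (SE 0.29, edgeR adjusted p 0.0379) in RNA and 0.47 (SE 0.06, edgeR adjusted p 3.26e-05) in footprints, and the RNA call was lost without library KO_6072 (0.68), Het_6136 (1.09) or Het_6139 (0.79), without a filter on low counts (0.97) and with transcripts grouped (0.89).

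Cluster 16 was the only 1 of the 21 in which footprints were not called higher in KO than in Het. The 2 members have 219 and 455 codons. RNA of the shorter was 17.9 and 18.1 CPM in the WT libraries, 65.7 and 75.7 in those of Het and 68.1 and 40.8 in KO. Its footprints were 33.1 and 24.9 CPM in the WT libraries, 52.3 and 49.8 in those of Het and 57.6 and 50.3 in KO. In both assays the Het libraries lay well above WT. In RNA-seq 1 of them lay between the KO libraries and the other above both, and in footprints Het_6136 lay between the KO libraries and Het_6139 just below both. Het exceeded WT by 1.85 (SE 0.37, edgeR adjusted p 0.00109) in RNA and by 0.76 (SE 0.10, edgeR adjusted p 0.000665) in footprints. For the longer member the same differences were 1.54 (SE 0.25, edgeR adjusted p 9.74e-05) and 0.73 (SE 0.09, edgeR adjusted p 0.000176). RNA of the longer member was 158 and 187 CPM in the Het libraries and 155 and 106 in KO, so both Het libraries lay above both KO libraries. KO minus Het was -0.35 (SE 0.24, edgeR adjusted p 0.418) in RNA and 0.08 (SE 0.09, edgeR adjusted p 0.576) in footprints for the shorter. For the longer it was -0.37 (SE 0.18, edgeR adjusted p 0.21) in RNA and 0.01 (SE 0.08, edgeR adjusted p 0.957) in footprints. None of these differences passed, which does not show that Het and KO are equal. The RNA call of the shorter member was lost without library WT_6026, at an unaltered log2 change of 1.85.

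In clusters 11 and 14 Het RNA lay at the WT level. Cluster 11 (250 codons) gave 17.9 and 25.8 CPM in the WT libraries, 24.5 and 19.8 in those of Het and 58.1 and 55.7 in KO in RNA-seq, with Het and WT overlapping. Its footprints nevertheless formed 3 separate levels, 55.8 and 55.7 CPM in the WT libraries, 70.8 and 78.7 in those of Het and 111 and 99.0 in KO. The Het to WT footprint difference was 0.43 (SE 0.08, edgeR adjusted p 0.0106) against -0.04 (SE 0.42, edgeR adjusted p 0.979) in RNA, and it was no longer called without library Het_6139 (0.36). Cluster 14 (320 codons) gave 26.8 and 28.4 CPM in the WT libraries, 29.6 and 18.0 in those of Het and 69.2 and 57.5 in KO in RNA-seq. Footprints were sparse, 5.65 and 6.12 CPM in the WT libraries, 4.88 and 3.66 in those of Het and 10.9 and 10.6 in KO from 122 pooled WT counts, and cluster 14 was the only cluster whose Het footprints lay below both WT libraries. KO exceeded Het by 1.38 (SE 0.28, edgeR adjusted p 0.00044) in RNA and 1.35 (SE 0.15, edgeR adjusted p 2.86e-06) in footprints, the latter the largest such footprint difference of any member.

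Cluster 9 held the largest RNA ratio and the fewest WT counts behind it. Its lead, the shortest member with 149 codons, had 2.24 and 0 CPM in the WT libraries, 14.2 and 14.4 in those of Het and 22.3 and 47.3 in KO in RNA-seq, which in WT is a single count. The KO to WT ratio was 30.0 (exact 95% interval 5.22 to 1203), an interval that covers counting error only. The other members of the cluster, of 366 and 420 codons and with 24 and 32 pooled WT counts, had RNA changes of 1.73 and 1.60. Footprints on the lead were 18.2 and 18.9 CPM in the WT libraries, 24.1 and 23.2 in those of Het and 36.6 and 35.7 in KO, a change of 0.98, close to the 0.81 and 0.79 of the longer members. RNA of the lead rose from Het to KO by 1.35 (SE 0.37, edgeR adjusted p 0.0138), a call lost without library KO_6072 (0.67) and without either Het library (1.32 and 1.37).

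Cluster 5 was the largest, with 5 members of 303 to 398 codons and 33 to 39 pooled WT RNA counts each. The lead gave 42.5 and 49.0 CPM in the WT libraries, 111 and 79.3 in those of Het and 132 and 112 in KO in RNA-seq. Its footprints were 36.8 and 32.8 CPM in the WT libraries, 43.5 and 43.3 in those of Het and 79.1 and 74.0 in KO. The higher Het library came close to the lower KO library in RNA-seq, whereas both Het libraries lay nearer to WT than to KO in footprints. RNA rose from WT to Het by 0.98 (SE 0.27, edgeR adjusted p 0.0337) and footprints from Het to KO by 0.81 (SE 0.07, edgeR adjusted p 1.93e-07). The RNA call was lost without library WT_6026 (0.89), library WT_6028 (1.08) or library Het_6136 (0.73), and with DESeq2 (1.01). Cluster 15 (392 codons) and cluster 19 (313 codons) were alike in having Het footprints near WT. Cluster 15 gave 15.7 and 31.0 CPM in the WT libraries, 51.5 and 43.3 in those of Het and 82.6 and 68.7 in KO in RNA-seq. Its footprints were 103 and 100.3 CPM in the WT libraries, 112 and 116 in those of Het and 193 and 179.6 in KO, so that Het was nearer to KO in RNA than in footprints. Cluster 19 had the highest WT RNA per codon of the members, 24.5 CPM per 100 codons. It gave 71.6 and 82.5 CPM in the WT libraries, 153 and 157 in those of Het and 145 and 177 in KO in RNA-seq. Its footprints were 37.1 and 38.0 CPM in the WT libraries, 39.8 and 40.3 in those of Het and 62.0 and 67.8 in KO. Het RNA overlapped that of KO and rose from WT by 0.91 (SE 0.22, edgeR adjusted p 0.0122), while the footprint difference between Het and WT was 0.10 (SE 0.09, edgeR adjusted p 0.714) and did not pass. The RNA call was lost without library WT_6026 (0.81), WT_6028 (1.00) or Het_6136 (0.96), and with DESeq2 (0.94).

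Clusters 6, 8, 12, 17 and 18 had low footprint levels. Cluster 6 (836 codons) had the largest footprint change, 1.51, and was the only cluster whose footprints differed more than its RNA (1.08) from WT to KO in its lead; among the other members, 1 of cluster 2 did so. It gave 17.9 and 33.5 CPM in the WT libraries, 37.4 and 55.9 in those of Het and 49.1 and 58.5 in KO in RNA-seq. Its footprints were 13.0 and 15.7 CPM in the WT libraries, 17.4 and 17.8 in those of Het and 41.1 and 35.8 in KO, where both KO libraries exceeded every WT and Het library more than 2-fold. Footprints rose from Het to KO by 1.13 (SE 0.09, edgeR adjusted p 9.96e-08), while RNA differed by 0.29 (SE 0.26, edgeR adjusted p 0.564), which did not pass. Cluster 8 (484 codons) gave 3.85 and 3.60 CPM in the WT libraries, 4.52 and 6.34 in those of Het and 7.14 and 8.33 in KO in footprints. Its RNA was 17.9 and 12.9 CPM in the WT libraries, 23.2 and 27.0 in those of Het and 42.4 and 36.2 in KO, without overlap between genotypes. The RNA differences of 0.56 (SE 0.45, edgeR adjusted p 0.581) from WT to Het and 0.69 (SE 0.29, edgeR adjusted p 0.153) from Het to KO did not pass. Its Het to KO footprint call, 0.46 (SE 0.16, edgeR adjusted p 0.048), was lost without library KO_6070 (0.60), library KO_6072 (0.35) or library Het_6136 (0.28), with DESeq2 (0.49) and with transcripts grouped (0.45). Cluster 12 (306 codons) gave footprints of 8.99 and 9.55 CPM in the WT libraries, 11.7 and 11.1 in those of Het and 18.1 and 16.1 in KO. Its RNA was 11.2 and 12.9 CPM in the WT libraries, 29.6 and 5.41 in those of Het and 39.1 and 37.1 in KO, with 1 Het library above and the other below both WT libraries in RNA. Without library Het_6136, the RNA difference between Het and WT was -1.19 and RNA was called higher in KO than in Het (2.79). Cluster 17 (797 codons), with the fewest footprints per codon of the leads in WT, gave 5.14 and 5.40 CPM in the WT libraries, 5.52 and 5.81 in those of Het and 9.11 and 9.15 in KO in footprints. Its RNA was 11.2 and 15.5 CPM in the WT libraries, 32.2 and 28.8 in those of Het and 32.4 and 33.4 in KO. Footprints rose from Het to KO by 0.67 (SE 0.13, edgeR adjusted p 0.00105), a call lost with DESeq2 (0.68), and the RNA difference of 0.13 (SE 0.29, edgeR adjusted p 0.85) did not pass. Cluster 18 (198 codons) gave 3.92 and 4.14 CPM in the WT libraries, 5.34 and 3.72 in those of Het and 7.18 and 6.63 in KO in footprints. Its RNA was 8.95 and 10.3 CPM in the WT libraries, 21.9 and 36.0 in those of Het and 23.5 and 37.1 in KO. Footprints rose from Het to KO by 0.64 (SE 0.17, edgeR adjusted p 0.0101), a call lost without library KO_6070 (0.60) or Het_6139 (0.36) and with DESeq2 (0.62). In clusters 17 and 18 Het RNA lay near KO, and Het footprints lay near or among those of WT.

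The position of Het was then compared across all 38 members. Het RNA lay between pooled WT and KO in 32 members and Het footprints in 37, against 34.6% and 29.0% of eligible units. In RNA-seq the median log2 change from WT to Het was 1.03 and that from Het to KO 0.64. In ribosome profiling the same medians were 0.28 and 0.72, so that the larger step lay between WT and Het for RNA and between Het and KO for footprints. Over all eligible units the same medians were 0.12 and 0.07 in RNA-seq and 0.01 and 0.02 in ribosome profiling. Both Het libraries exceeded both WT libraries in 31 of 38 members in RNA-seq and in 35 in ribosome profiling, against 33.3% and 23.0% of eligible units. Both KO libraries exceeded both Het libraries in 31 and 36 members, against 32.3% and 37.1%. The rule asked for a wide gap between WT and KO, whereas the median gaps over all eligible units were 0.21 in RNA-seq and 0.03 in ribosome profiling. A wide gap leaves more room for Het to lie between, so nothing is read from the higher shares among the members. No other set with a wide footprint gap was compared. The 207 eligible units with RNA at or above the same threshold but a footprint change within 0.3 of 0 had a similar position of Het in RNA: it lay between WT and KO in 93.7% of them, both Het libraries exceeded both WT libraries in 86.5%, and the medians from WT to Het and from Het to KO were 0.74 and 0.44. The larger RNA step between WT and Het is therefore not particular to the 38 members. Both sets were chosen for WT RNA low beside KO, with median pooled counts of 15.5 and 18 in WT and 129.5 and 104 in KO. Choosing on so few WT counts can widen the RNA step from WT to Het in both sets, and how far it did was not tested. Over the members, each Het library alone gave much the same medians against WT, 1.12 and 1.07 in RNA-seq and 0.26 and 0.27 in ribosome profiling.

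**Figure D3:**
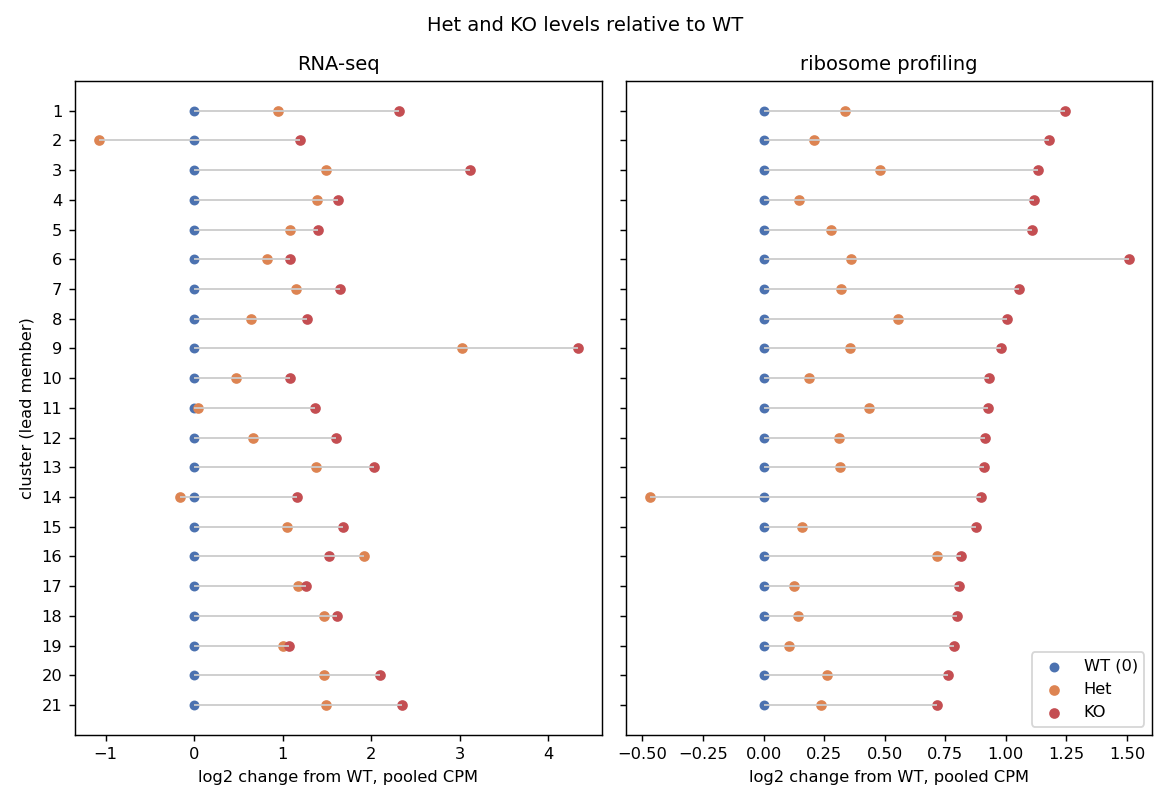
Log2 change of pooled CPM from WT (blue, at 0) to Het (orange) and KO (red) for the lead member of each cluster (rows 1 to 21) in RNA-seq (left) and ribosome profiling (right), with different x axis ranges. Het lies between WT and KO in most rows, further from WT in RNA-seq than in ribosome profiling; in RNA-seq clusters 2 and 14 fall to the left of 0 and cluster 16 lies beyond KO.

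In edgeR's quasi-likelihood test over all merged rows, 9 members of 4 clusters were called higher in Het than in WT in RNA-seq and 0 lower, where 0.753% of the 12356 units tested were called higher and 1.63% lower. Over the 3762 eligible units, which met the same count minimums as the members, the shares were 1.75% and 2.1%. The 4 clusters were 5, 7, 16 and 19. In ribosome profiling 9 members of 5 clusters were called higher in Het and 0 lower, where 0.485% of 33221 units were called higher and 0.482% lower, and 0.93% and 0.213% of eligible units. These were clusters 1, 7, 11, 13 and 16, so that 4 members of 2 clusters were called in both assays. From Het to KO, RNA-seq called 17 members of 8 clusters higher and 0 lower, against 3.88% and 3.27% of all units tested and 7.89% and 3.3% of eligible units. Ribosome profiling called 36 members of 20 clusters higher and 0 lower, against 10.4% and 13.3% of all units and 15.3% and 15.4% of eligible units. All 38 members passed the count filter in each of these fits. The rule selected members that were low in WT and high in KO, and these comparisons reuse those libraries. How far the choice itself raises the counts above the background was not tested. The RNA-seq count of 9 from WT to Het fell to 1 without library WT_6026, 3 without library WT_6028 and 2 without library Het_6136, and the footprint count of 9 to 3 without library Het_6139. The RNA-seq count of 17 fell to 10 without library Het_6139. DESeq2 called 2 of the 38 members from WT to Het and 6 of the 26 with an adjusted p from Het to KO in RNA-seq, and 8 of 32 and 29 of 38 in ribosome profiling.

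Whether Het differed from WT more in RNA than in footprints was tested as the change in ribosome density. The fitted median over members was -0.75, against -0.11 over all 30890 units tested, and 34 of 38 members were negative, against 56.9% of eligible units, the exceptions being the 3 members of cluster 2 and that of cluster 11. edgeR called 0 of the 38 members, where 0.0939% of all units and 0.611% of eligible units were called. At an unadjusted p under 0.05 there were 21 members, against 17.7% of eligible units, and DESeq2 also called 0 of the 31 members with an adjusted p, with 17 of 38 at that unadjusted level. The WT libraries in this test also took part in the choice of members, with a higher threshold for RNA than for footprints, which favours negative values. From pooled CPM the median was -0.79 over the members, with 10.5% above 0. Over the 207 units with higher RNA and steady footprints it was -0.72, with 3.38% above 0. Negative values are therefore not particular to the members. The choice of the 207 units, by higher RNA at steady footprints against the same WT libraries, favours negative values as well. They are thus no independent comparison. The lowest adjusted p was that of cluster 19, -0.88 (SE 0.23, edgeR adjusted p 0.137). The difference between the assays in the position of Het thus passed the test for no single member.

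The rule did not use the Het libraries. Its RNA minimum applied to KO, however, and members had to be at least 2-fold lower in WT RNA. Ribosome density in Het is therefore not independent of the choice. The median log2 ratio of footprint CPM to RNA-seq CPM in Het was 0.88 over the members and 1.08 over the leads, against -1.14 over all eligible units. The medians over members and over all eligible units were 1.73 and -0.98 in WT, and 0.46 and -1.17 in KO, so the difference was smallest in KO. Density in Het was above the upper quartile of the eligible units (0.17) in 20 of 38 members and in 12 of 21 leads. Among the 207 units with higher RNA and steady footprints, the median was -0.75 and 35.7% were above that quartile. No test was made of this difference, because the members were chosen and share reads within clusters. The members did not form 1 group: clusters 3, 20 and 2 had the highest Het densities of the leads (4.31, 4.16 and 4.07), and clusters 18, 14, 17 and 8 the lowest (-2.67, -2.59, -2.45 and -2.17). That of cluster 2 rests on 12 pooled Het RNA counts.

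Levels per length showed a similar contrast. In Het the members had a median of 21.7 footprint CPM per 100 codons, against 5.90 over eligible units, and 21 of 38 were above the upper quartile of the latter. Their RNA per length in Het was lower than that of eligible units at the median, 8.87 RNA-seq CPM per 100 codons against 12.6, and 6 of 38 were above the upper quartile. In KO, to which the count minimums applied, the order was the other way, 16.0 against 13.1. The lower RNA in Het is therefore not read as a trait of the members. From WT to KO the members' density was lower in 35 of 38, against 62.5% of eligible units, with a median log2 change of -0.47 against -0.20. These are the values that chose the members, with a higher threshold for RNA than for footprints, and nothing is read from them. From Het to KO the median was 0.06, with 20 of 38 above 0, against 45.9% of eligible units.

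Members were shorter than eligible units at the median, though not richer in short units, within a range that the rule sets. Their lengths ran from 149 to 878 codons with a median of 395 (392 over the leads), against 516 over all eligible units and 499 with 1 unit per transcript group. Of the 38 members 6 had 300 codons or fewer and 11 had 600 or more, against 942 and 1490 of the 3762 eligible units. Cluster 5 alone contributes 5 members between 303 and 398 codons. The 207 units with higher RNA and steady footprints had a median of 425.

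**Figure D4:**
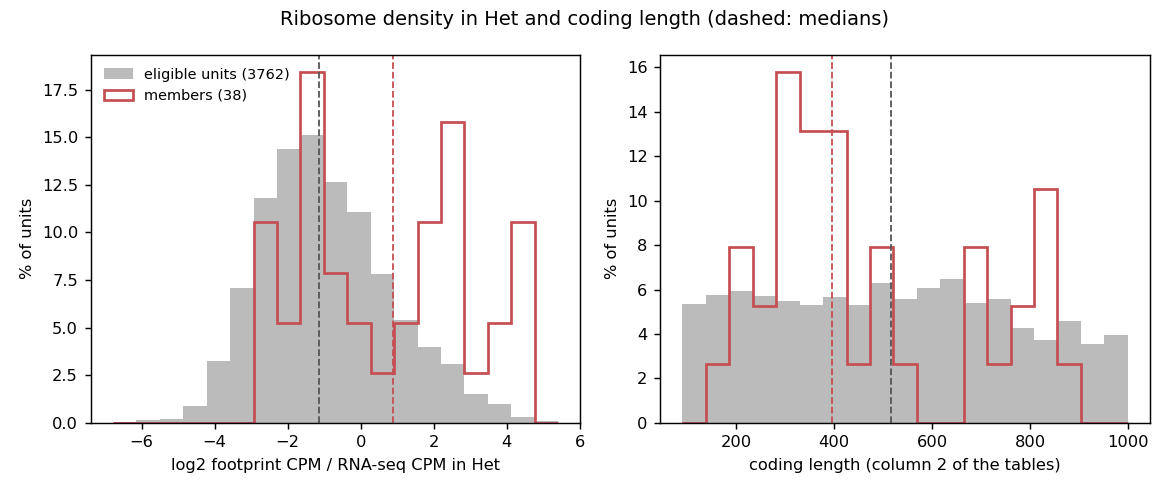
Distribution of ribosome density in Het (left, log2 of footprint CPM over RNA-seq CPM) and of coding length (right, second column of the tables) as % of units, for the 3762 eligible units (grey bars) and the 38 members (red outline), with dashed lines at the medians. The members' density spreads from -2.67 to 4.31 with a median of 0.88 above the -1.14 of eligible units, and their lengths have a median of 395 against 516.

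The choice of members depended in part on single libraries. Both fold thresholds were still met by 31 members of 17 clusters without library WT_6026, 33 of 20 without library WT_6028, 34 of 19 without library KO_6070 and 35 of 19 without library KO_6072. In 25 members of 15 clusters they were met whichever of these was left out, and in 19 members of 11 clusters they held in every pairing of a KO with a WT library. With the count minimums applied unchanged, 19 and 18 units met the whole rule without library KO_6070 or KO_6072, fewer by construction since a single library holds fewer counts. Without library WT_6026, 56 units did. Members of a cluster, and any near-identical gene copies, can share reads, and overlapping genes on opposite strands may not be separated: the RNA-seq kit keeps strand, but whether the counting used it is not given in the sources used here.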

How the data were processed

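RNA-seq and ribosome profiling of 12 libraries were analysed from the tables the authors deposited, which hold raw counts per Ensembl transcript beside an ID and a length, with no header. The submitters' processing notes name CASAVA 1.8, cutadapt 3.7, UMI-tools 1.1.2, STAR 2.7.0a and the mm39 build; the counting tool, annotation and use of strand are not given in the sources used here. The length was read as codons, a meaning the files do not state. Rows equal in all libraries were merged, CPM were taken over all rows, and 0.5 was added to counts for log2 changes of pooled values. Neighbouring members within 25 rows formed a cluster. Tests used edgeR 4.0.16 in R 4.3.3 (TMM, filterByExpr, quasi-likelihood F test, Benjamini-Hochberg adjustment over all units, threshold 0.05) on all libraries of an assay, or on all 12 for density. Standard errors were obtained from the fitted log2 change and its F statistic. Scripts were tested on simulated counts. DESeq2 1.42.0, other size factors, no filter, transcript groups and left-out libraries were alternatives.

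Members and lists were chosen with earlier results of these data known. The rule for named members took ranks 3 to 10 by the smaller change, the longest, the shortest, the most abundant and those at the thresholds, with transcript IDs for ranks 1 and 2; the other leads were added after their values were seen. Gene lists and cell type markers need symbols and were not analysed here.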

Additional observations from a re-analysis of the deposited data

How the results depend on the processing

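RNA-seq gave a median of 15.5 pooled WT counts per member, which limits the precision of the RNA values. The number of members, 38, became 19 when the thresholds had to hold in every pair of a KO and a WT library and 23 when transcripts with near-proportional counts were grouped. It ranged from 18 to 56 when 1 WT or KO organoid number was left out, and was 35 and 38 without KO_6070 or KO_6072 once the count minimums were halved, a setting chosen after seeing the data. The median length of 395 codons was 392 with 1 unit per transcript group or per cluster, the latter also chosen after seeing the data.

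The median RNA change from WT to Het was 1.09 with 1 unit per group or cluster, 0.85 with 5 added to the counts, 0.93 with TMM-scaled totals and 1.07 to 1.12 without 1 Het library. That from Het to KO was 0.58 with 5 added, 0.67 with TMM and 0.54 to 0.74 without 1 Het library. In footprints the median from WT to Het was 0.29 with TMM and 0.26 to 0.27 without 1 Het library, and that from Het to KO 0.66 per group, 0.68 per cluster, 0.72 with TMM and 0.74 without either Het library. All these medians kept their sign.

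Members called by edgeR from WT to Het in RNA-seq numbered 9, 2 with DESeq2 and 1 to 7 without 1 library. From Het to KO they numbered 17, 6 with DESeq2, which gave an adjusted p for 26, and 10 to 15 without 1 library. In footprints the 9 calls from WT to Het became 19 without a filter on low counts and 3 to 10 without 1 library, and the 36 from Het to KO ranged from 34 to 35. Leaving out a library leaves 1 in its group, which is then assumed to vary like the others. The cause of these shifts was not tested. Density between WT and Het gave 0 calls under each alternative, including the fit with the replicate block, that is the organoid number as a block. Deviations of same-numbered RNA-seq and footprint libraries had a correlation of 0.0593 (WT), 0.133 (Het) and 0.00912 (KO) across 2555 units with at least 300 RNA-seq counts in all. Counting error lowers such a correlation, so these values cannot show whether same-numbered libraries are paired. The main density fit took them to share only a number. For the 21 leads, 655 values under alternatives gave 586 with the same direction and call, 46 lost calls, 11 gained calls and 12 changes of sign in uncalled values.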
